A study of Rattus norvegicus with 49 samples.

Results

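The step from 0.5 to 2 mg/kg furan, the top doses of a 90-day rat study, was examined in male liver. The 10 arrays chosen were those whose animal code marks a male rat at 2 mg/kg (5 arrays) or at 0.5 mg/kg (5 arrays), out of 49 arrays in the series. The difference is between these groups. Arrays of the other groups, controls included, shared the fit and helped to adjust for the glass slide that held each array. All rats were of the inbred F344 strain, 7 to 8 weeks old at the start, and received furan in corn oil by gavage on 5 days per week. The remaining groups were males given corn oil alone (0 mg/kg), 0.03 mg/kg or 0.12 mg/kg, and females at the same 5 dose levels. Each group had 5 rats except for 4 males at 0.03 mg/kg. Whole-liver RNA was labelled with Cy5 and hybridised beside a universal rat reference RNA labelled with Cy3. Every value below is a log2 ratio of liver over reference for a probe, or a difference between such ratios, and says nothing about levels of different genes relative to each other.

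Furan is formed in heated food and is oxidised in the liver, mainly by Cyp2e1, to a reactive dialdehyde that binds glutathione and protein. Glutathione S-transferases, aldo-keto reductases and quinone reductase remove such electrophiles, and many of their genes are switched on by the transcription factor NRF2, which binds antioxidant response elements. Rat liver also differs strongly between the sexes, because the pattern of growth hormone release sets which cytochrome P450 and steroid-metabolising genes are used. Bile duct cells, a minor cell population of the healthy liver, multiply in response to many toxic injuries.

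Markers of hepatocytes, the main cells of the liver, were detected. In these 10 arrays, 7 of the 8 hepatocyte markers were well above background on every array and Hnf4a on 9. Between 37.9% and 69.6% of spots were well above background in the liver channel. The first principal component held 46% of the variance and did not separate the doses. Its scores ran from -34.51 to 38.34 at 2 mg/kg and from -40.37 to 45.73 at 0.5 mg/kg. Slides are the glass carriers that each hold several arrays. The scores were -34.51 and -40.37 on slide 5, and -12.42 and -5.4 on slide 7. The other slides held a single one of these arrays, so slide and rat cannot be told apart there. Slide was a block in the fit because the doses lay mostly on different slides. Only slides 5 and 7 carried a rat of each dose, so 8 slides gave 2 direct pairs: animal 81 with 63, and animal 83 with 68.

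Between the doses, 199 of 17661 probes (1.13%) passed the test, meaning that the adjusted p was 0.05 or less and that the ratios differed by 1.5-fold or more. Of these, 126 probes (0.713%) were higher and 73 (0.413%) were lower at 2 mg/kg. Among them 129 probes carried a gene symbol, and they represented 69 genes that rose and 53 that fell. Among genes with a symbol, the largest rises were those of the glutathione transferases Gsta3 and Gstp1, the female-typical P450 Cyp2c12 and the aldehyde reductase Akr7a3. The falls included the male-typical P450 Cyp3a2, the glucose-releasing phosphatase G6pc1 and the fatty acid carrier Fabp7. At an unadjusted p under 0.05, limma passed 3833 probes (21.7%). The direction was the same within slide 5 for 196 of the 199 probes and within slide 7 for 196, and in both for 193. These pairs were part of the fit.

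**Figure D1:**
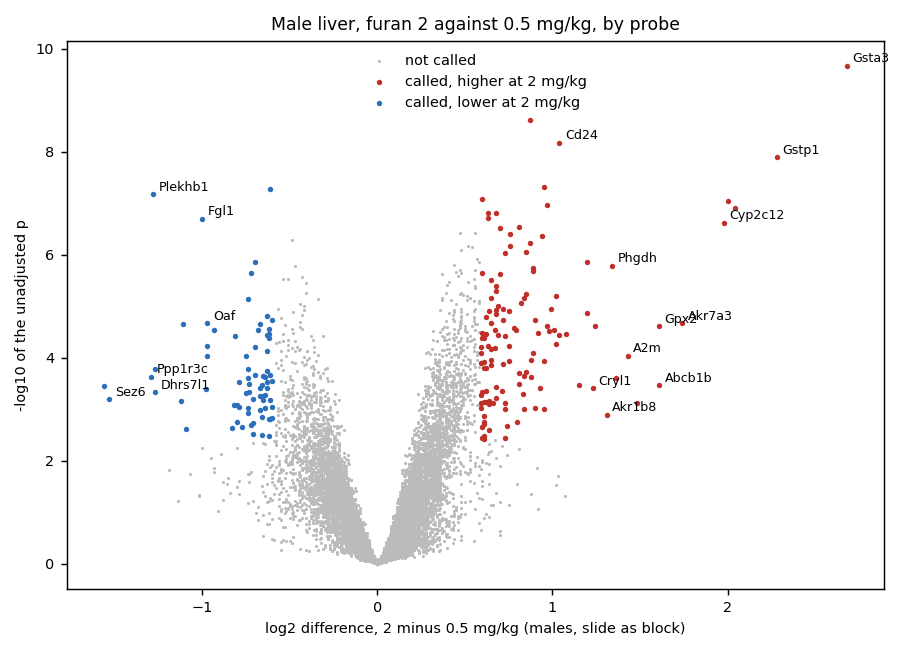
Each dot is 1 probe: the x axis is the log2 difference between male rats at 2 and at 0.5 mg/kg with slide as a block, and the y axis is minus log10 of the unadjusted p. The 126 probes called higher (red) reach a log2 difference of 2.68 for Gsta3, and the 73 called lower (blue) reach -1.53 for Sez6 among probes with a symbol.

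The count of calls depended on the model more than the directions did. It was 36 without the slide block and 0 when only the 10 arrays were fitted without it, where 828 probes passed an unadjusted p under 0.05 in limma. Leaving out animal 87 at 2 mg/kg gave 94 calls and leaving out animal 86 gave 392. All 199 probes kept their sign in each of these fits. The probes were chosen by the reported fit and the arrays were largely the same, so the kept signs are no independent test.

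The rats at 2 mg/kg were not equally far from the lower dose. Animals are numbered here as the scanner files are, and the number is uncertain within a group, since the series matrix pairs most numbers with other arrays of the same sex and dose. After adjustment for slide, animal 86 was the nearest of the 5 to the 0.5 mg/kg rats for 137 of the 199 probes, and animal 87 was the farthest for 128. At 0.5 mg/kg the order was less uneven, with animal 70 nearest to the higher dose for 80 probes. Before adjustment, the 5 values of each dose did not overlap for 38 of the called probes, while 191 of 17641 probes with a value on every array (1.08%) did not overlap. After it, 132 did not overlap, but the slide terms came from the same fit.

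Glutathione conjugation held the largest rises. Gsta3, which encodes the Yc2 subunit of the alpha class of glutathione S-transferases, had ratios of 3.06, 2.69, 3.2, 2.48 and 3.11 in the rats at 2 mg/kg (animals 81, 83, 84, 86 and 87, the order used for every gene below). The ratios at 0.5 mg/kg were 0.39, -0.01, -0.13, -0.28 and 1.63 (animals 62, 63, 65, 68 and 70). Ratios of single rats, and overlaps read from them, are before adjustment for slide unless stated. The doses did not overlap, and animal 70 stood above its group. The rise was 6.4-fold, a log2 difference of 2.68 ± 0.31 (SE, adjusted p = 3.78e-06), and it kept its call in all 10 fits that left out 1 rat. Another probe assigned to the same transcript lay between 3.41 and 4.16 in all 10 rats and differed by 0.04 ± 0.11 (adjusted p = 0.876). The probes of this gene therefore disagreed, and alpha class transferases are close relatives that a probe may not separate.

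Gstp1, the pi class transferase that is a classical marker of altered hepatocyte foci in the rat, rose 4.84-fold. Its ratios were -0.33, -0.39, 0.52, -2.25 and 1.01 at 2 mg/kg and -2.67, -3.09, -2.9, -2.38 and -1.64 at 0.5 mg/kg. Animal 86 lay among the 0.5 mg/kg rats and the other 4 lay above all of them. The log2 difference was 2.28 ± 0.31 (adjusted p = 5.7e-05), with 2.76 within slide 5 and 2 within slide 7. Among the 21 transferase genes tested by their brightest probe, Gstp1 was the only call, and the list's median log2 difference was 0.04 beside 0 for all 9852 genes. Gsta3 entered that list through its brighter, flat probe.

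Gpx2, a glutathione peroxidase of epithelia that reduces hydroperoxides, was higher by 1.61 ± 0.33 (3.06-fold, adjusted p = 0.00308). Ratios at 2 mg/kg were -1.85, -2.06, -1.14, -3.13 and -0.52, against -3.29, -3.39, -4.23, -3.15 and -2.44 at 0.5 mg/kg. Here too animal 86 overlapped the lower dose. A smaller difference of 0.92 ± 0.19 was seen with its other probe (adjusted p = 0.00349).

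The NRF2 list, which holds antioxidant, glutathione and NADPH genes, had 20 tested genes, of which 19 had a positive difference, 5 passed the test as higher and 0 as lower. For comparison, 0.69% of all genes rose by the same measure, and the list's median log2 difference was 0.42. The 5 genes were Gpx2, Gclc, Nqo1, Ugdh and Ftl1. Gclc, the catalytic subunit of the first enzyme of glutathione synthesis, had ratios of 1.62, 1.89, 2.08, 1.35 and 2 at 2 mg/kg and 0.73, 0.8, 0.89, 1.26 and 1.5 at 0.5 mg/kg. It rose by 0.89 ± 0.2 (1.86-fold, adjusted p = 0.00559), and 4 of the 5 rats exceeded every rat of the lower dose. Nqo1, the quinone reductase, rose 1.76-fold, Ugdh, which makes the glucuronic acid donor, 1.68-fold, and Ftl1, the ferritin light chain, 1.52-fold. In the fits with male arrays only or with the series matrix by group, 0 genes of the list passed, with medians of 0.36 and 0.35.

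The aldo-keto reductases, which reduce reactive aldehydes to alcohols, had 3 calls among 13 tested genes, all higher, beside 0.69% of all genes called higher, and their median was 0. Akr7a3, the aflatoxin aldehyde reductase, had ratios of 4.53, 4.96, 5.39, 3.9 and 5.17 at 2 mg/kg. At 0.5 mg/kg they were 3.17, 1.82, 2.21, 3.79 and 4.83, so animals 68 and 70 reached into the range of the higher dose or close to it. The difference was 1.74 ± 0.35 (3.33-fold, adjusted p = 0.00294). Akr1b8 rose 2.48-fold (1.31 ± 0.37, adjusted p = 0.0261), with animal 87 at -0.04 and the other rats at 2 mg/kg between -3.63 and -1.63. Its call was lost when animal 84, 87, 63 or 65 was left out, and the lowest difference was then 0.82. Akr1a1, the general aldehyde reductase, rose 1.57-fold. Akr1c13, which is not in the list and was chosen after its value was seen, rose by 0.68 ± 0.1 (adjusted p = 0.000212).

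Export and conjugation genes were mixed. Of 11 ABC export pumps, Abcb1b was the only call and the median was 0.21. Of 13 UGT and sulfotransferase genes, 10 were lower, 1 was called higher and 2 lower, with a median of -0.09. By the same measure, 0.69% of all genes were called higher and 0.487% lower. Abcb1b, an inducible P-glycoprotein pump, rose 3.06-fold (1.61 ± 0.41, adjusted p = 0.0122). Its ratios ran from 1.65 to 3.77 at 2 mg/kg and from -0.28 to 2.74 at 0.5 mg/kg, and only 2 rats lay above the lower dose. The other probe of the gene gave 1.02 ± 0.22 (adjusted p = 0.00448). The call of the first probe was lost without animal 87, 63 or 65. Ugt2b7, a glucuronosyltransferase, rose 2.03-fold (1.02 ± 0.19, adjusted p = 0.00164). The 2 calls in the other direction were sulfotransferases, with Sult1c3 at -0.81 ± 0.17 (adjusted p = 0.00367) and Sult1c2a lower 1.53-fold. Sult1c3 had ratios of 7.4, 6.89, 7.69, 8.67 and 6.13 at 2 mg/kg against 8.17, 7.85, 8.57, 7.09 and 8.93, so animal 86 lay above 4 of the 5 rats at the lower dose. Cryl1, a crystallin-like dehydrogenase, rose 2.34-fold (1.23 ± 0.31, adjusted p = 0.0131), and the call was lost without animal 63 or 68. Kif12, a kinesin, rose 2.06-fold (1.04 ± 0.22, adjusted p = 0.00364). At 0.5 mg/kg the liver signals of Kif12 and Ugt2b7 were well above background in 3 of 5 rats.

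Promoter sequence is shown for genes of this response, since NRF2 binds the core TGACNNNGC of the antioxidant response element. The motif was searched on both strands in the 250 bases before the start site, in RefSeq promoters of the GRCr8 build. Among the 14 genes with the largest rises, 13 had a promoter in the table and 4 held the motif. Of the 14 largest falls, 11 had a promoter and 2 held it, and 10.1% of all 33469 promoters did. A gene was counted if any of its promoters held the motif, while that share is per promoter. A match is a string of letters and no measured site. The sequences of 3 genes that rose and 1 that fell follow, 5′ to 3′ on the gene's strand, with the motif in capitals.
Gsta3, chr9:31154739-31154988, plus strand: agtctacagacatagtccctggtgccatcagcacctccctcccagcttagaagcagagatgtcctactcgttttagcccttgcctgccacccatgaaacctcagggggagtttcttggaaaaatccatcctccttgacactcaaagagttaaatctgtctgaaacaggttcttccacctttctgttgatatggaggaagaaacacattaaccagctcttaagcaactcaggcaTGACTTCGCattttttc
Gstp1, chr1:210769706-210769955, minus strand: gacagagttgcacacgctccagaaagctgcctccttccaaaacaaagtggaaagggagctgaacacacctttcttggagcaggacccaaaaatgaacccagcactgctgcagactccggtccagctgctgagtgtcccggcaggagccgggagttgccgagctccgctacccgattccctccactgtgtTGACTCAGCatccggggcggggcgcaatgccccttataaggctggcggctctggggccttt
Gpx2, chr6:101230034-101230283, minus strand: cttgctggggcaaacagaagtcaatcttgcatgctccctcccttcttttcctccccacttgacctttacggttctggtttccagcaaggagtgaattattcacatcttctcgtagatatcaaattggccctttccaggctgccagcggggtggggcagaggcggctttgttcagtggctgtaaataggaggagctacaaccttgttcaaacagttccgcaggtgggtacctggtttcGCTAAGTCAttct
Plekhb1, chr1:164425173-164425422, minus strand: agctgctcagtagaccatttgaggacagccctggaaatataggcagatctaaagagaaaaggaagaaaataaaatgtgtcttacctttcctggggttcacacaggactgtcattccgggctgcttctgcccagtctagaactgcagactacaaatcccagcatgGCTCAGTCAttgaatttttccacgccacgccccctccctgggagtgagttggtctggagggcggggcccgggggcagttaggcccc

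In these windows the motif began 17 bases before the start in Gsta3, 61 in Gstp1, 13 in Gpx2 and 86 in Plekhb1. Gsta3 and Gstp1 carried it on the strand of the gene, and Gpx2 and Plekhb1 on the opposite strand. A second Gsta3 entry in the table, with another start site (chr9:31166793-31167042), held no match. Akr7a3, whose ratio rose 3.33-fold, held no match in its window. Thus the motif was found in genes that moved in either direction, and the sequences say nothing of what bound there.

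**Figure D2:**
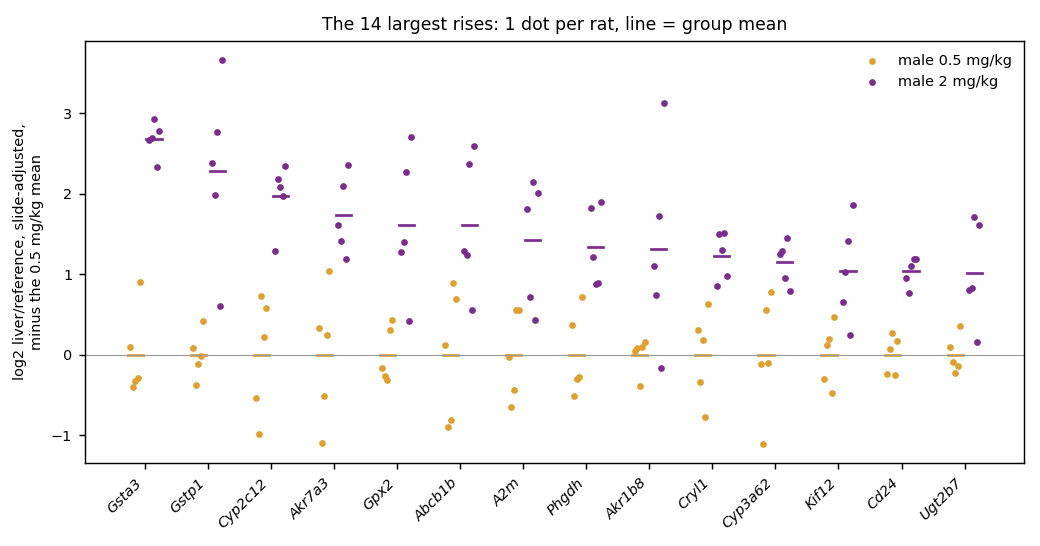
Slide-adjusted log2 liver/reference ratio of each male rat, set against the mean of the 0.5 mg/kg rats, for the 14 genes with the largest rises (x axis), with a line at each group mean. For 8 of the 14 genes the 5 rats at 2 mg/kg lie above all 5 at 0.5 mg/kg, and for 9 the lowest rat at 2 mg/kg is animal 86. The genes were chosen by the fit that gave the slide terms, so this separation is no test. Before adjustment it held for Gsta3 and Cd24 alone, and for 0.782% of all probes with a value on every array.

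Phgdh and A2m were also among the rises, each as the only call of its list. Phgdh, the first enzyme of serine synthesis, was higher by 1.34 ± 0.23 (2.53-fold, adjusted p = 0.000793), with ratios of -0.49, -1.15, -1.55, -1.32 and -0.51 against -2.06, -2.82, -2.48, -2.64 and -1.07. Animal 70 alone at 0.5 mg/kg reached the range of the higher dose. Phgdh was the only call among 19 genes of the ER stress and amino acid response, whose median was -0.15. A2m, alpha-2-macroglobulin, is an acute phase protein of the rat. It rose 2.69-fold (1.43 ± 0.32, adjusted p = 0.00597), with 2.46 within slide 5 but 0.15 within slide 7, while 19 of the 21 acute phase genes had a negative difference, the list's median was -0.21 and 0 genes passed as lower.

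Cd24, a surface protein of bile duct and progenitor cells, separated the doses in every rat. Its ratios were -0.79, -1.17, -0.67, -0.9 and -0.65 at 2 mg/kg and -1.75, -1.68, -1.84, -2.19 and -1.38 at 0.5 mg/kg. The doses did not overlap, and the rise was 2.06-fold (1.04 ± 0.14, adjusted p = 3.94e-05). Epcam, the epithelial adhesion molecule of bile ducts, rose 1.71-fold (0.78 ± 0.16, adjusted p = 0.00322), with animal 86 at -1.13 inside the range of the lower dose. These were the 2 calls among 14 tested genes of the bile duct and progenitor list, of which 12 had a positive difference, with a median of 0.39. Over all genes, 0.69% were called higher and 50% had a positive difference. The duct keratins Krt7 and Krt19 differed by 0 and 0.43 and did not pass. More duct cells and more RNA per cell cannot be told apart in whole liver.

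Other cell type lists had few calls or none. The 24 stellate and fibrosis genes had a median of 0.11 and 0 calls, with Timp1 at 0.5 and Col1a1 at 0.44. By limma, 2 of the 24 were higher at an unadjusted p under 0.05, against 2148 of all 17661 probes. Macrophage genes (19 tested, median -0.03), neutrophil genes (4, -0.14), lymphocyte genes (9, -0.07) and endothelial genes (7, -0.01) held 0 calls. All 8 erythroid genes were lower, with a median of -0.44 and 0 calls, and their mean level ranged from 1.74 to 2.77 at 2 mg/kg and from 2.16 to 3.01 at 0.5 mg/kg. The part of blood content in the results was not tested.

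Cell cycle and p53 target genes held 1 call. Of 27 cell cycle genes, 22 had a positive difference with a median of 0.17, and 0 passed. By limma, 7 of these were higher and 0 lower at an unadjusted p under 0.05. Rrm2, a ribonucleotide reductase subunit, stood at 0.68 (adjusted p = 0.0846) and Mcm3, a replication helicase subunit, at 0.58 (adjusted p = 0.00811), just under the fold threshold. Among the p53 targets, Ccng1 was the only call of 17, while 5 were higher and 1 lower at an unadjusted p under 0.05. For comparison, 0.69% of all genes were called higher, and 21.7% of all probes had an unadjusted p under 0.05 in limma in either direction. Ccng1 rose by 0.7 ± 0.11 (1.62-fold, adjusted p = 0.000297), with ratios of 0.06, 0.19, -0.5, -1.2 and 0.38 against -0.68, -0.63, -1.12, -0.32 and -1.22. Cdkn1a, which blocks the cell cycle, was at -0.42 and did not pass (adjusted p = 0.0609).

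Among the sex-typical genes of the liver, 1 of 15 male-biased genes and 2 of 12 female-biased genes passed the test in the males. Of all genes, 0.69% were called higher and 0.487% lower. Cyp2c12, the P450 that is typical of female rats, rose 3.94-fold. Its ratios were 3.27, 4.54, 5.71, 4.74 and 4.24 at 2 mg/kg against 1.51, 1, 3.9, 2.58 and 4.21 at 0.5 mg/kg, and the doses overlapped through animals 65 and 70. With slide as a block the difference was 1.98 ± 0.31 (adjusted p = 0.000269), and it was 2.27 within slide 5 and 1.96 within slide 7. Adjusted for slide, the males reached a mean of 4.61 ± 0.41 (SD, n = 5) at 2 mg/kg from 2.63 ± 0.74 at 0.5 mg/kg and 2.57 ± 0.43 at 0 mg/kg. The female mean was 9.83 ± 0.32 at 0.5 mg/kg against 9.75 ± 0.29 in the females given 2 mg/kg. Each male mean lay below both. Cyp3a62, a P450 of the 3A family, rose 2.22-fold (1.15 ± 0.29, adjusted p = 0.0122). Before adjustment for slide, its ratios of 3.18 to 5.34 overlapped widely with the 1.05 to 4.95 of the lower dose. Cyp3a62 did not overlap between the doses after adjustment, with slide terms from the same fit. It was higher in males, at 4.31 ± 0.27 at 2 mg/kg against 2.41 ± 0.38 in females after adjustment for slide.

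Cyp3a2, a male P450 that hydroxylates testosterone, had ratios of 9.04, 7.7, 7.93, 9.69 and 7.86 at 2 mg/kg and 9.61, 9.22, 9.58, 8.65 and 10.52 at 0.5 mg/kg. The difference was -1.09 ± 0.33 (2.12-fold, adjusted p = 0.0383), and only 3 of 10 fits without 1 rat kept the call. Hsd3b5, a steroid dehydrogenase typical of males, was at -0.98 ± 0.25 (adjusted p = 0.0133), and its other probe gave -0.4 (adjusted p = 0.545). By the brightest probe of each gene, all 15 tested male-biased genes had a negative difference. Cyp3a2 was the only one that passed. In limma 2 of the 15 were lower at an unadjusted p under 0.05, against 1685 of all 17661 probes. The Hsd3b5 probe that passed was not among the 15. The median of the 15 genes was -0.52. That median was 0 in the series matrix by group. Of the 12 female-biased genes, Cyp2c12 rose and Sult2a6, a hydroxysteroid sulfotransferase, fell 1.65-fold, and the median was -0.12.

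Few genes of growth factor signalling passed the test. The list of growth hormone and IGF genes had 14 tested members, 12 of them lower, a median of -0.26 and 0 calls, with Cish, a feedback inhibitor of the receptor, at 0.91 (adjusted p = 0.106) and Ghr, the receptor, at -0.53 (adjusted p = 0.0293). Another probe of Ghr passed with -0.63 (adjusted p = 0.0114). Egfr, the epidermal growth factor receptor, passed with -0.74 (adjusted p = 0.0215). The probes of Ghr and Egfr that passed were chosen after their values were seen.

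Glucose and lipid genes were among the largest falls. G6pc1, the phosphatase that releases glucose from the liver, had ratios of 3.09, 2.5, 3.07, 4.46 and 1.16 at 2 mg/kg and 4.24, 3.44, 4.84, 3.57 and 5.12 at 0.5 mg/kg. The difference was -1.12 ± 0.3 (2.17-fold, adjusted p = 0.018), and its brighter probe gave -0.75 (adjusted p = 0.00601). Ppp1r3c, which directs a phosphatase to glycogen, was at -1.29 ± 0.31 (adjusted p = 0.0102). Fabp7, a fatty acid binding protein, fell 2.16-fold with ratios of 6.14, 5.59, 5.63, 7.45 and 4.47 against 6.77, 6.48, 7.4, 6.15 and 7.39. G0s2, an inhibitor of triglyceride breakdown, was at -0.83 ± 0.25 (adjusted p = 0.0374), and its call held in 3 of the 10 fits without 1 rat. Angptl4, a PPAR alpha target that slows lipoprotein lipase, fell 1.63-fold. Of 15 lipogenic genes 13 were lower, with Fasn at -1 (adjusted p = 0.063), and of 28 PPAR alpha and fatty acid oxidation genes 24 were lower with a median of -0.21.

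Plekhb1, a pleckstrin homology domain protein, and Oaf, a secreted protein, were the 2 named falls whose doses did not overlap. Plekhb1 had ratios of 1.38, 1.46, 1.02, 2.04 and 0.46 at 2 mg/kg and 2.29, 2.2, 2.58, 2.52 and 2.83 at 0.5 mg/kg. The difference was -1.28 ± 0.19 (2.42-fold, adjusted p = 0.00017). Oaf had 0.13 as its highest ratio at 2 mg/kg and 0.19 as its lowest at 0.5 mg/kg (-0.97 ± 0.2, adjusted p = 0.00294). Sez6 had the largest fall with a symbol, -1.53 ± 0.41 (adjusted p = 0.0171), although animal 86 had the highest of its 10 ratios at 6.14. Its other probe gave -0.71 (adjusted p = 0.0555). Fgl1, a hepatocyte-secreted fibrinogen-like protein, fell 2-fold (-1 ± 0.16, adjusted p = 0.000239). Dhrs7l1, Srms and Tob2 were the other named falls, at -1.27, -0.93 and -0.82. With the scanner software's own log ratio several falls nearly vanished, to -0.08 for Sult1c3, -0.1 for Fabp7, -0.2 for Fgl1 and -0.22 for Dhrs7l1. Calls also rested on single rats: those of Sez6 and G6pc1 were lost without animal 84 or 87, and that of Tob2 in 5 of the 10 fits without 1 rat.

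**Figure D3:**
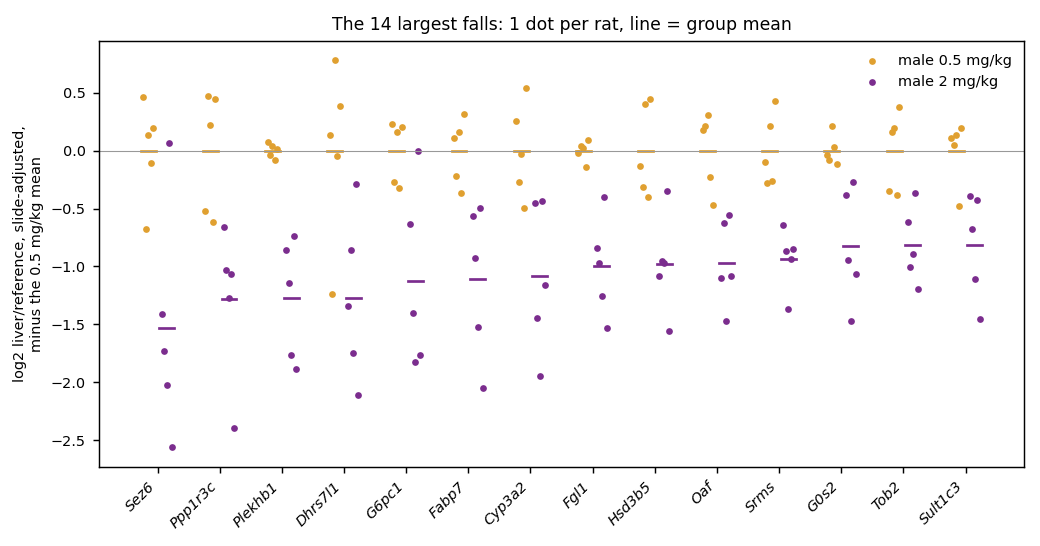
The same display for the 14 genes with the largest falls: slide-adjusted log2 liver/reference ratio of each male rat minus the mean of the 0.5 mg/kg rats, with a line at each group mean. For 7 of the 14 genes the 5 rats at 2 mg/kg lie below all 5 at 0.5 mg/kg, and for 11 the nearest rat to the lower dose is animal 86. Here too the genes were chosen by the fit that gave the slide terms, so the separation is no test. Before adjustment it held for Plekhb1 and Oaf alone, and for 0.3% of all probes with a value on every array.

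Secreted and transport functions of hepatocytes were lower in many genes by small amounts. In the complement and coagulation list, 24 of 25 tested genes had a negative difference, 21 with an unadjusted p under 0.05, and the median was -0.31. The 3 that passed were F7, coagulation factor VII, at -0.79 ± 0.22 (adjusted p = 0.0207), Cfi, complement factor I, at -0.72 ± 0.13 (adjusted p = 0.000896), and Mbl2, a mannose-binding lectin, at -0.64 ± 0.17 (adjusted p = 0.0153). Over all genes, 0.487% fell by the same measure, and 1685 of 17661 probes were lower at an unadjusted p under 0.05 in limma. Cfi had ratios of 4.88, 5, 5.35, 5.4 and 4.47 at 2 mg/kg against 5.35, 5.49, 6.02, 5.7 and 5.95, and the groups overlapped slightly.

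Bile acid genes were lower in all 16 tested members with a median of -0.35, and 2 passed. Among all genes, 0.487% were called lower and 50% had a positive difference. The calls were Slc10a1 and Slco1b2, the sodium-dependent and organic anion carriers that take bile acids up from blood, at -0.62 ± 0.18 (adjusted p = 0.0292) and -0.67 ± 0.19 (adjusted p = 0.0227). Within slide 7 Slc10a1 stood at 0.07, against the fitted direction. Cebpa, a transcription factor of mature hepatocytes, was the only call among 18 hepatocyte genes, at -0.61 ± 0.18 (adjusted p = 0.029), and 17 of the 18 were lower with a median of -0.16. Alb differed by -0.27 and Ttr by -0.15, and neither passed.

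**Figure D4:**
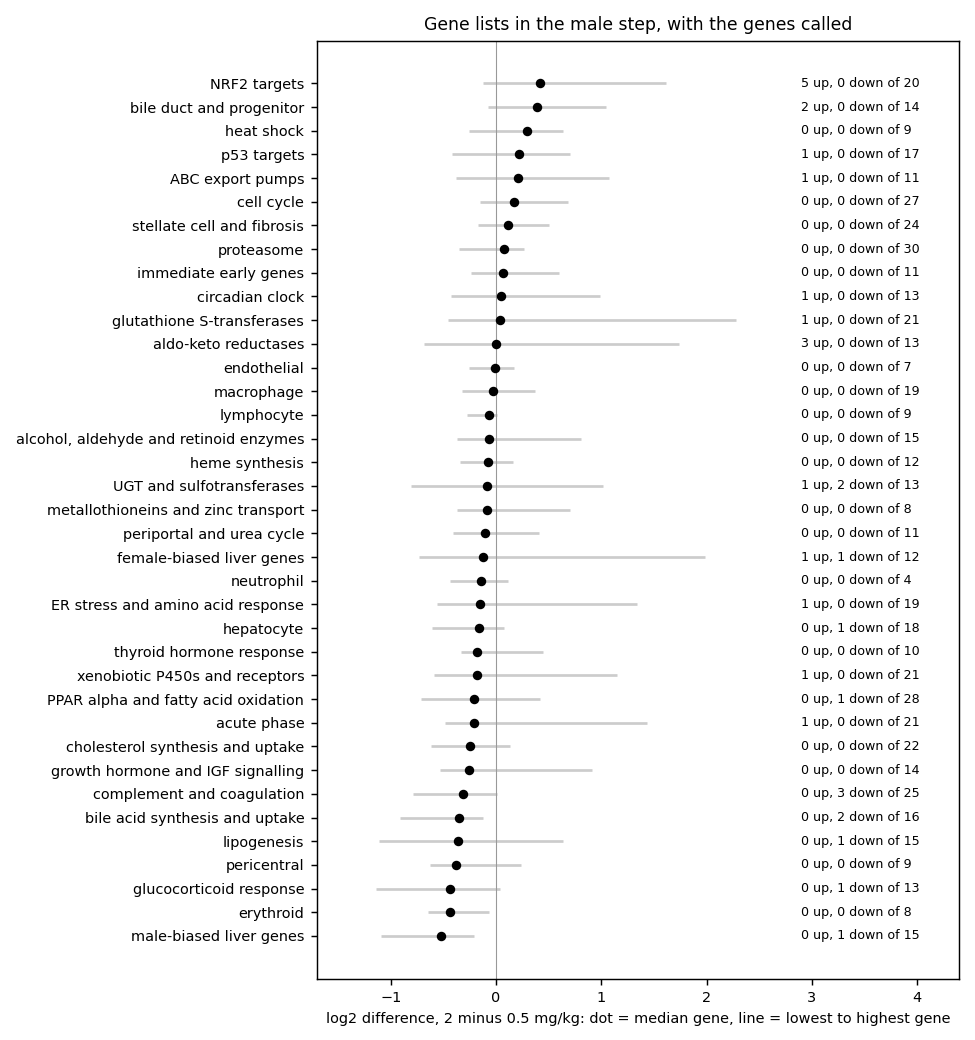
Log2 difference between male rats at 2 and at 0.5 mg/kg (x axis) for 37 lists of genes, with the median gene as a dot, the lowest to highest gene as a line, and the number called up and down of the number tested. The medians run from -0.52 for male-biased liver genes to 0.42 for NRF2 targets, and no list holds more than 5 calls.

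Several lists had 0 to 1 calls. Dbp, a clock output gene, was the only call of 13 clock genes, at 0.99 ± 0.19 (adjusted p = 0.0022), with ratios of -0.85, -0.53, -0.14, -1.28 and -0.25 against -1.68, -1.58, -2.02, -1.22 and -1.32. Among 21 xenobiotic P450s and receptors, 17 were lower and Cyp3a62 was the only call. Metallothioneins and zinc transport genes had 0 calls of 8, with Mt2A at 0.7 (adjusted p = 0.585). Thyroid hormone response genes had 0 calls of 10 and a median of -0.18, and pericentral genes 0 of 9 and a median of -0.38. Cholesterol genes were lower in 20 of 22, with a median of -0.25 and 0 calls, and heat shock genes higher in 6 of 9, with a median of 0.29 and 0 calls. In limma 5 cholesterol genes and 5 heat shock genes passed an unadjusted p under 0.05 in those directions. Of all 17661 probes, 1685 were lower and 2148 higher at that level.

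The 0.5 mg/kg group lies between the controls and the top dose, and both contrasts with controls share its arrays or those of the 2 mg/kg group. Side by side, Akr7a3 stood at 1.2 ± 0.35 (adjusted p = 0.129) at 0.5 mg/kg and 2.93 ± 0.35 (adjusted p = 3.84e-07) at 2 mg/kg relative to controls. Cyp2c12 stood at 0.06 ± 0.31 and 2.04 ± 0.3, Gsta3 at 0.52 ± 0.3 and 3.2 ± 0.3, and Gstp1 at 0.41 ± 0.31 and 2.69 ± 0.3. Ppp1r3c was at 0.65 ± 0.31 and -0.64 ± 0.31 and Tob2 at 0.33 ± 0.22 and -0.49 ± 0.22, so neither passed against controls at either dose. Against controls, 64 probes (0.362%) passed at 0.5 mg/kg and 899 (5.09%) at 2 mg/kg.

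**Figure D5:**
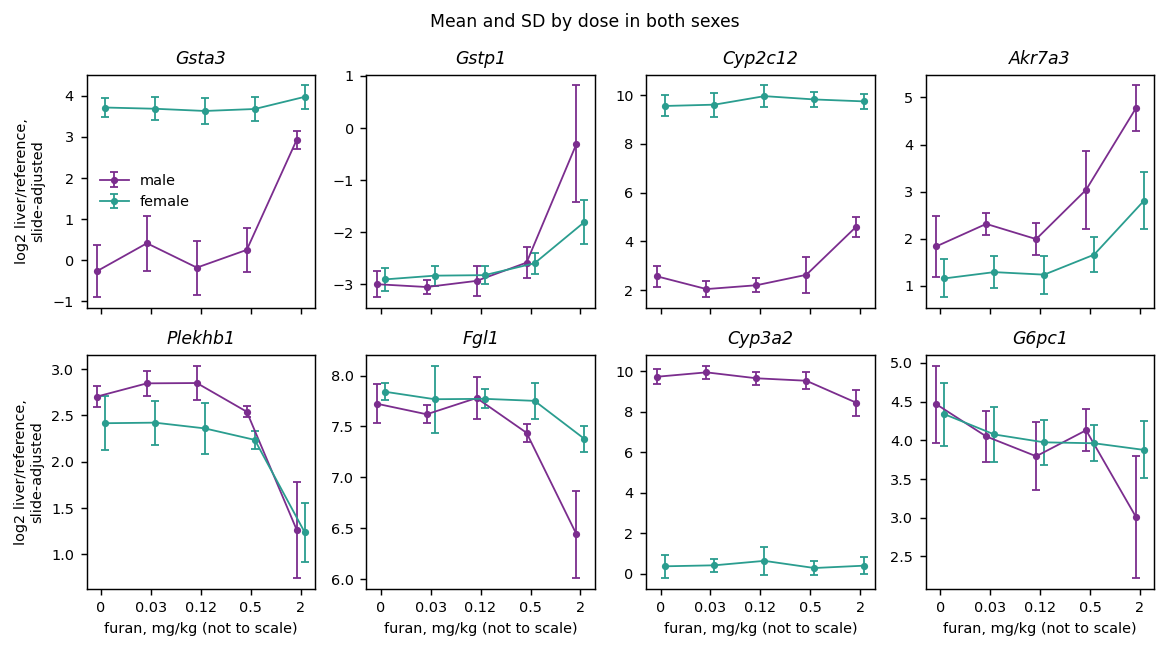
Slide-adjusted log2 liver/reference ratio by furan dose (x axis, not to scale) as mean and SD in males and females for 8 genes, with 5 rats per point except for 3 males at 0.03 mg/kg. Gsta3 in males lies at 2.93 at 2 mg/kg and at 0.25 at 0.5 mg/kg, while females stay between 3.68 and 3.98 at these doses.

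The same step in females was much smaller in number. It called 2 of 17661 probes (0.0113%), Plekhb1 at -1 ± 0.18 (adjusted p = 0.0346) and a probe without a symbol. Of the 199 probes called in males, 175 (87.9%) had the same sign in the females, against 61.5% of all tested probes, and 66 passed an unadjusted p under 0.05 in that direction. The sexes share no arrays, but their slide terms are common.

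The difference between the male and the female step passed for 1 probe (0.00566%), that of Gsta3. It was 2.68 in males and 0.3 ± 0.3 in females, and the interaction was 2.38 ± 0.41 (adjusted p = 0.0263). Slide-adjusted means were 3.68 ± 0.29 and 3.98 ± 0.28 in females at 0.5 and 2 mg/kg, above 2.93 ± 0.22 in males at 2 mg/kg (SD, n = 5). The call was lost in 13 of the 20 fits that left out 1 rat of these 4 groups, with adjusted p up to 0.128. Cyp2c12 had a difference between the steps of 2.06 ± 0.42 and Ugt2b7 of 1.29 ± 0.26 (limma interaction, adjusted p = 0.123 for each). Neither passed, and for other genes no difference between the sexes was shown.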

How the data were processed

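Liver RNA of the 49 rats was hybridised to Agilent arrays of 2 colours, with the liver in Cy5 and the reference in Cy3. The deposited scanner files, made by the authors with Agilent Feature Extraction 10.7.3.1, hold the median pixel intensity of each spot and its background in each channel, a log10 ratio processed by the scanner software, and 0 or 1 spot flags. The deposited series matrix holds values that the authors normalised in R, which are log2 ratios of liver over reference as judged against the scanner values. Of its 49 columns, 7 followed the scanner file of their own animal most closely, 39 that of another rat of the same group and 3 none (Spearman's rho of at least 0.85 between centred values), so it was used by group only, and which rat of a group an array holds is uncertain. Column medians ran from -0.06 to -0.03. Intensities were corrected by normexp (offset 50) and loess in limma 3.58.1 (R 4.3.3), and spots of a probe were averaged without outlier spots. Of 30367 probes, the 17661 whose liver spots were well above background in 4 or more rats of any sex and dose group were tested. Symbols came from RefSeq, for 18004 probes (59.3%).

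The fit held 48 arrays, 10 sex and dose means and slide as a fixed block. The array of male 26 at 0.03 mg/kg was left out because 5.06% of its liver spots were above background. Scan days are nested in slides. Tests were limma's moderated tests, 2-sided, with Benjamini-Hochberg adjustment. SEs are those of the fit. Labels do not say that rats came from separate litters or cages, and the number of arrays limits the precision. The 14 largest rises and 14 largest falls among called probes with 1 symbol were named, with 1 probe per gene. Lists were described by the brightest probe per gene, naming every called member or else up to 2 with the largest difference. The count of calls in each list stands beside 0.69% of all genes called higher and 0.487% called lower by that measure. The groups, the 37 gene lists and the naming rules were chosen with earlier results of these data known. The steps were tested on simulated data, and the alternatives are given in the closing section. One gene is not reported here.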

Additional observations from a re-analysis of the deposited data

Results flagged for a closer look

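Before adjustment for slide, Fgl1 had 1 rat far from its group at 0.5 mg/kg. Animal 68 stood at a ratio of 6.83, with the nearest of the other rats at 7.53 and the highest at 7.74, so the gap took up 0.77 of the group's range. It was the only such case among 56 sets of 5 rats (28 named genes at each dose), while chance gives about 1 in 20 sets. Animal 68 shares slide 7 with animal 83 at 2 mg/kg, and within that slide Fgl1 differed by -0.83. The females on slide 7 had Fgl1 ratios from 7 to 7.45, and the male at 0.03 mg/kg on it had 7.11. After adjustment for slide, the males at 0.5 mg/kg had a mean of 7.44 with an SD of 0.09. The flag therefore rests on values that still hold the slide offset.

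The step of Gsta3 differed between the sexes by 2.38 ± 0.41 (limma interaction, adjusted p = 0.0263), with a higher ratio in 5 of 5 males at 2 mg/kg than in any male at 0.5 mg/kg. Across 24 alternatives its value ran from 1.96 to 2.96 and its adjusted p from 0.000798 to 0.979. The other probe of the gene gave an interaction of -0.12 (adjusted p = 0.868).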

How the results depend on the processing

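Of the named genes, all 28 kept their direction in all 27 alternatives (756 values), and 527 of these values were still called. The genes were chosen as the largest differences of the reported fit, and the alternatives reuse its arrays. The kept directions are therefore no independent test. The size held less well: with the scanner log ratio Sult1c3 shrank from -0.81 to -0.08, Fabp7 from -1.11 to -0.1, Fgl1 from -1 to -0.2 and Dhrs7l1 from -1.27 to -0.22, and Sez6, G6pc1, Cyp3a2 and Hsd3b5 stood at -0.76, -0.67, -0.43 and -0.35. Of the 28 genes, 16 were called in all 10 fits without 1 rat. In the male step, slide as a random block, Aquantile, the liver channel alone, no filter and the filter on the pair alone gave 183, 199, 284, 183 and 204 calls, against 199 as reported. Fewer probes were called without the slide block (36), with the dim array (87), with male arrays only (31), with the 10 arrays only (0 without a block, 113 with a random block), with median centring (50), with the series matrix (46), with array weights (121) and by the test against 1.5-fold (2, Gsta3 and Gstp1). Chosen after seeing the data, leaving out slides 5 and 6 gave 83. More were called with a normexp offset of 10 (325) or the scanner log ratio (448). Without 1 rat the count ran from 94 to 392, the extremes being animals 87 and 86. Rises made up 63.3% of calls as reported, 49.8% with offset 10, 48.2% in the liver channel alone, 89.7% with the dim array, 83.3% without the block and 80% with median centring. For the interaction with sex, 1 probe was called, 0 under median centring (790 at an unadjusted p under 0.05 in limma) and 0 with the scanner ratio (1441), and from 0 to 5 without 1 rat. The cause was not tested. No paired analysis was possible because the rats compared share no animal numbers; the slide block uses the 2 pairs of rats that share a slide. Liver spots well above background made up from 37.9% to 69.6% of an array.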
